A study of Homo sapiens with 16 samples.

Results

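Regions bound by AIB1 in parental mammary epithelial cells were compared between the list named after MCF10A and the list named after MCFDCIS. AIB1 is the nuclear receptor coactivator encoded by NCOA3. The MCF10A-named list holds 490 regions, called clusters here, and the MCFDCIS-named list holds 651. A cluster was called shared when it overlapped a cluster of the other list by at least 1 bp. By this rule the lists hold 834 distinct regions, of which 307 were shared, 183 were in the MCF10A-named list only and 344 were in the MCFDCIS-named list only. All 4 lists of the series together hold 897 distinct regions.

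The series mapped AIB1 by chromatin immunoprecipitation and sequencing (ChIP-seq) in MCF10A, a non-tumorigenic human mammary epithelial line, in MCFDCIS, derived from it and used as a model of ductal carcinoma in situ, and in the D4 counterpart of each. For every 1 of these 4 groups the labels list 3 ChIP samples with 1 input, and all were grown to passages 10 to 15 in the same medium with horse serum, EGF, hydrocortisone, cholera toxin and insulin. Hydrocortisone is a glucocorticoid and EGF is the ligand of EGFR, so both signals were present in every group. How the D4 lines were made, whether a line is 1 clone and whether a group's 3 samples are separate cultures is not said in the labels. The labels give the MCF10A samples, too, a cell type of ductal carcinoma in situ. Binding lists hold no expression values, so no cell type label could be checked against its markers.

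The line of each list is uncertain. Samples labelled MCFDCIS point in their descriptions to an MCF10A-named file, and samples labelled MCF10A point to an MCFDCIS-named file. No list was therefore assigned to a line, and exchanging the names leaves every value below as it is. Each parental group has 1 list with no replicate values, so no spread between replicates can be given and no test over samples was possible. Sequencing depth is unknown. Intervals below are 95% intervals (exact, Clopper-Pearson, for shares and Newcombe for differences) that cover the counting of clusters only, and neighbouring clusters are not independent.

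AIB1 does not bind DNA itself. It is recruited by DNA-bound factors, among them ligand-bound steroid receptors and the FOS-JUN dimers of AP-1, and brings histone acetyltransferases to enhancers and promoters. The glucocorticoid receptor binds an inverted repeat, the glucocorticoid response element (GRE), and induces genes such as PER1, FKBP5 and KLF9. AP-1 acts downstream of EGFR and MAPK signalling, and TEAD factors, which often share enhancers with AP-1, carry the output of the Hippo pathway through YAP.

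The sequences of example clusters of each class are shown first, because they hold the motifs by which the classes are then compared. The clusters shown were picked for holding a match, so they do not show how common matches are. All are on the plus strand of GRCh37, read 5' to 3', and capitals mark AP-1 matches (TGANTCA on either strand) and GRE matches. Among the shared clusters, the 1 at PER1, a circadian clock repressor induced by glucocorticoids, ranked 4 in the MCF10A-named list and 1 in the MCFDCIS-named list (rank 1 is the highest score). It lies in an intron at chr17:8057651-8057860 and holds a GRE match. The cluster in intron 3 of MCF2L2 at chr3:183088651-183088910 ranked 11 and 2 and holds both motifs. The cluster nearest to DUSP10, a MAPK phosphatase gene 149.7 kb away, at chr1:222065151-222065360 ranked 3 and 22 and holds both as well.
PER1: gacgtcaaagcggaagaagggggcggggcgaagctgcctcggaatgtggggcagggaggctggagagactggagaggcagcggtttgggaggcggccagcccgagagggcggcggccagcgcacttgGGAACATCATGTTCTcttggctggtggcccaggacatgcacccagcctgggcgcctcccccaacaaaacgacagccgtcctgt
MCF2L2: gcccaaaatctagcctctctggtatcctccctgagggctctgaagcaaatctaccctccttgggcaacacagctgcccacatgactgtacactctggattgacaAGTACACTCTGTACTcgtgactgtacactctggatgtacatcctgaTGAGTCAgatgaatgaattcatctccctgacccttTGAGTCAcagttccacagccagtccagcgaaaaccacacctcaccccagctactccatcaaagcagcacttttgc
DUSP10: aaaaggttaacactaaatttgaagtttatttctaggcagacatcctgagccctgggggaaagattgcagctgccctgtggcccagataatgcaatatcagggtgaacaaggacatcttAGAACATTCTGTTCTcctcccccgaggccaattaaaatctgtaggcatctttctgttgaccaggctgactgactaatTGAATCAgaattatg

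Of the shared clusters near glucocorticoid-induced genes, 4 that hold a GRE match are shown. SCNN1A encodes a subunit of the epithelial sodium channel, and its cluster at chr12:6485501-6485560 is 0.772 kb from the transcription start site (TSS). MT2A is a metallothionein gene, with a cluster at chr16:56641201-56641360. KLF9 encodes a zinc finger transcription factor, and its cluster at chr9:73035001-73035010 is 10 bp wide. FKBP5 encodes a co-chaperone of steroid receptors, and its cluster at chr6:35695901-35695960 lies near an alternative start of the gene. Here and below, the printed stretch was extended by up to 100 bp where a match lay just outside the cluster, as at SCNN1A, KRT6A and KLF13. Such a match is counted with the cluster.
SCNN1A: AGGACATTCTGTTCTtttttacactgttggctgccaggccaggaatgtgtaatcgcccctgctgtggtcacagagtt
MT2A: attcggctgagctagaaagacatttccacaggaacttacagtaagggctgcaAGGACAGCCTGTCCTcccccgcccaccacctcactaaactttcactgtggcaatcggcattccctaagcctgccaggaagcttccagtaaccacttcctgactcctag
KLF9: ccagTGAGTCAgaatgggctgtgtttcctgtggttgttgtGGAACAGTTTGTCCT
FKBP5: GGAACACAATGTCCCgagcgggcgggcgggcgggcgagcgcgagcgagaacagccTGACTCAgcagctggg

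A further 3 shared clusters are shown because they lie near genes of other lists. KRT6A is a stress-inducible basal keratin gene, and its cluster at chr12:52888451-52888510 has a GRE match just outside its edge and no AP-1 match. EREG encodes the EGFR ligand epiregulin, and the intronic cluster at chr4:75240351-75240510 holds 2 AP-1 matches. FOSL1 encodes FRA-1, itself a subunit of AP-1. The cluster 15.5 kb from its TSS, at chr11:65683351-65683360, has 2 AP-1 matches within the stretch shown and lies nearer to C11orf68 (3.17 kb).
KRT6A: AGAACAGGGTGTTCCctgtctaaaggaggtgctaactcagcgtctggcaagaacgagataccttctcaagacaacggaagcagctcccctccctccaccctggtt
EREG: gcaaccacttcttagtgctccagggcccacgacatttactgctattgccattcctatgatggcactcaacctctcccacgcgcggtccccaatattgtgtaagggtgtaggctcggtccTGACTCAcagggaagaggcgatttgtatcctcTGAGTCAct
FOSL1: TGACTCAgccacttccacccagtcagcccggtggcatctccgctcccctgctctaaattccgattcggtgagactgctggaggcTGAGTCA

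For comparison, 2 high-ranked clusters with such matches are shown for each unshared class, left out where the stretch would overlap a protein-coding exon, as at S100A2. In the MCF10A-named list only, they lie in intron 1 of KLF13, a Krüppel-like factor gene, at chr15:31658151-31658210 (rank 23) and in intron 1 of ERGIC1, a secretory pathway gene, at chr5:172296151-172296360 (rank 36). In the MCFDCIS-named list only, they lie 559.5 kb from the TSS of KLF4, an epithelial differentiation factor gene, at chr9:110811501-110811810 (rank 32) and in intron 3 of PDSS2, a gene of coenzyme Q synthesis, at chr6:107568551-107568660 (rank 43). Since every cluster shown was picked for a match, these examples cannot show how often GRE matches occur, which was addressed next.
KLF13: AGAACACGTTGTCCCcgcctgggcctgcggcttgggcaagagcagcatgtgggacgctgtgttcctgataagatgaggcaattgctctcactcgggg
ERGIC1: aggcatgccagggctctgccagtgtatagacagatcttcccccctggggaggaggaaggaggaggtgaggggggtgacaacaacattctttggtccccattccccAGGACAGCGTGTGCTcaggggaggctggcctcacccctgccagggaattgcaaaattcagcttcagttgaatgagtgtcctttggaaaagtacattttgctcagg
KLF4: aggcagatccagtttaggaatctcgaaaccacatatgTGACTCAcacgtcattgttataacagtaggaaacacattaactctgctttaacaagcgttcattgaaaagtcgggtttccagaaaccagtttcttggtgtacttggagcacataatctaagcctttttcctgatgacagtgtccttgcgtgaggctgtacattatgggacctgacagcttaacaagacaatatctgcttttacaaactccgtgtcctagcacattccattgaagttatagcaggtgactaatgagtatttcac
PDSS2: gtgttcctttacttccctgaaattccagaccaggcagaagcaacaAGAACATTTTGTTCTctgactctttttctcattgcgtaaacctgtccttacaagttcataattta

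Shared clusters held AP-1 motifs more often than the MCF10A-named only class and GRE motifs more often than the MCFDCIS-named only class. The GRE difference from the MCF10A-named only class and the AP-1 difference from the MCFDCIS-named only class depended on the setting. In the central 500 bp of the clusters, 28 of 307 shared clusters (9.12%) had a GRE match, compared with 5 of 183 MCF10A-named only clusters (2.73%) and 6 of 344 MCFDCIS-named only clusters (1.74%). In windows of the same width centred 5 kb to either side, the shares were 0.326%, 0.546% and 0.581%. The shared class exceeded the MCF10A-named only class by 6.39 percentage points (1.94 to 10.4) and the MCFDCIS-named only class by 7.38 points (3.98 to 11.2). Without the regions dense with clusters, which hold 98 of the 183 MCF10A-named only clusters, the first difference was 4.08 points (-3.69 to 9.41), an interval that includes 0, and the second was 7.61 points (3.57 to 11.9). The unshared classes differed from each other by 0.99 points (-1.55 to 4.62).

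AP-1 matches were present in 132 shared clusters (43.0%), 42 MCF10A-named only clusters (23.0%) and 112 MCFDCIS-named only clusters (32.6%). The flanking windows held an AP-1 match in 14.3%, 17.5% and 16.7%. The shared class exceeded the MCF10A-named only class by 20.0 points (11.5 to 27.9) and the MCFDCIS-named only class by 10.4 points (2.98 to 17.8). The MCF10A-named only class was lower than the MCFDCIS-named only class, with a difference of -9.61 points (-17.1 to -1.47). The excess over the MCFDCIS-named only class was 3.58 points (-3.36 to 10.5) when whole clusters were searched, an interval that includes 0.

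GRE matches were found with and without AP-1 matches. Of the 28 shared clusters with a GRE match, 11 also had an AP-1 match and 17 did not, beside 132 of 307 with an AP-1 match among all shared clusters. In the MCF10A-named only class 3 clusters had both motifs and 2 had a GRE match alone, and in the MCFDCIS-named only class these counts were 3 and 3.

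**Figure D1:**
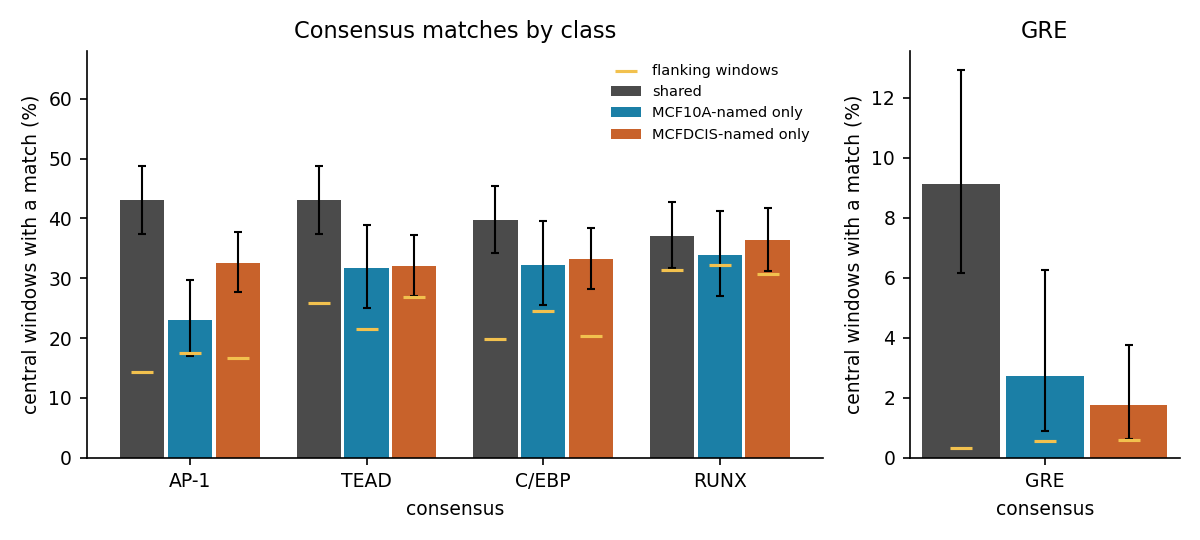
Share of clusters (percent, y axis) with a match to the AP-1, TEAD, C/EBP or RUNX motif and, on an axis of its own, to the GRE in the central 500 bp, for the shared, MCF10A-named only and MCFDCIS-named only classes; bars carry exact 95% intervals over clusters and the short lines give the share in flanking windows. The AP-1 bars stand at 43.0%, 23.0% and 32.6% and the GRE bars at 9.12%, 2.73% and 1.74%.

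Some other motifs also separated the classes. The TEAD motif (GGAATG) was present in 43.0% of shared, 31.7% of MCF10A-named only and 32.0% of MCFDCIS-named only clusters, with flanks at 25.9%, 21.6% and 26.9%, so that the shared class was higher by 11.3 points (2.40 to 19.7) and 11.0 points (3.58 to 18.3). The GC box (GGGCGG), a site of SP and KLF factors, was present in 23.1%, 13.7% and 15.4%, with the shared class higher by 9.47 points (2.26 to 16.0) and 7.72 points (1.66 to 13.8). The flanks held a GC box in 13.4%, 6.83% and 10.0%, so their share was also highest for the shared class. A single arm of the p53/p63 motif was present in 19.2%, 14.8% and 11.9%; p63 is a basal epithelial factor. Its flanks were at 11.4%, 16.1% and 12.2%, and the shared class exceeded the MCFDCIS-named only class by 7.30 points (1.74 to 12.9).

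The C/EBP motif (TTNNGCAA) was present in 39.7%, 32.2% and 33.1% of the 3 classes, with flanks at 19.9%, 24.6% and 20.3%. Its differences from the shared class, 7.50 points (-1.35 to 15.9) and 6.60 points (-0.79 to 13.9), had intervals that include 0. The RUNX motif (TGTGGT) was present in 37.1%, 33.9% and 36.3%, close to its flanks at 31.4%, 32.2% and 30.7%. For the E-box (CACGTG), NF-kB, ETS (CCGGAAGT) and CTCF motifs each interval of a difference between classes included 0. The full estrogen response element had no match in any cluster or flank, which says only that these letters are not in these windows.

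The shares with GRE and TEAD matches also fell with rank among the shared clusters. Ordered by the MCF10A-named list, GRE matches were present in 17 of the 102 highest ranked (16.7%), 8 of the next 102 (7.84%) and 3 of the last 103 (2.91%). Ordered by the MCFDCIS-named list the counts were 15, 7 and 6. TEAD matches were present in 50%, 49.0% and 30.1% by the first order and in 50%, 48.0% and 31.1% by the other. By the MCFDCIS-named order the intervals of the highest and the lowest ranked stretch overlapped. They were 8.47% to 23.1% and 2.17% to 12.2% for GRE, and 39.9% to 60.1% and 22.3% to 40.9% for TEAD. AP-1 matches showed no such order in the MCF10A-named list, at 40.2%, 51.0% and 37.9%, and stood at 47.1%, 46.1% and 35.9% by the MCFDCIS-named list.

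Since unshared clusters ranked lower, the classes were also set side by side on each side of the list's median rank. Above the median of the MCF10A-named list, 87 of 193 shared clusters (45.1%) and 12 of 48 unshared clusters (25%) held an AP-1 match, and 24 (12.4%) and 4 (8.33%) held a GRE match. Below it, AP-1 stood at 39.5% and 22.2% and GRE at 4 of 114 (3.51%) and 1 of 135 (0.741%). Above the median of the MCFDCIS-named list, AP-1 stood at 47.0% for shared and 40.8% for unshared clusters, and GRE at 11.0% and 4%. Below it, AP-1 stood at 35.5% and 27.9% and GRE at 6 of 107 (5.61%) and 1 of 219 (0.457%). The shared clusters had the higher share in each of these 8 pairs, but the GRE counts of unshared clusters are small and several intervals overlap.

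The highest ranked clusters of each list were nearly all in the other list. Of the first 25 clusters of the MCF10A-named list 24 were shared, and of its first 100, 91 were. In the MCFDCIS-named list 25 of the first 25 and 83 of the first 100 were shared. With the MCF10A-named list split by rank into 5 equal stretches, the share shared was, from the highest, 91 of 98 (92.9%), 74 of 98 (75.5%), 56 of 98 (57.1%), 43 of 98 (43.9%) and 43 of 98 (43.9%). With the MCFDCIS-named list split likewise it was 100 of 131 (76.3%), 68 of 130 (52.3%), 63 of 130 (48.5%), 34 of 130 (26.2%) and 42 of 130 (32.3%). The intervals of the first and the last stretch did not overlap in either list (85.8% to 97.1% and 33.9% to 54.3% in the MCF10A-named list, 68.1% to 83.3% and 24.4% to 41.1% in the MCFDCIS-named list).

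**Figure D2:**
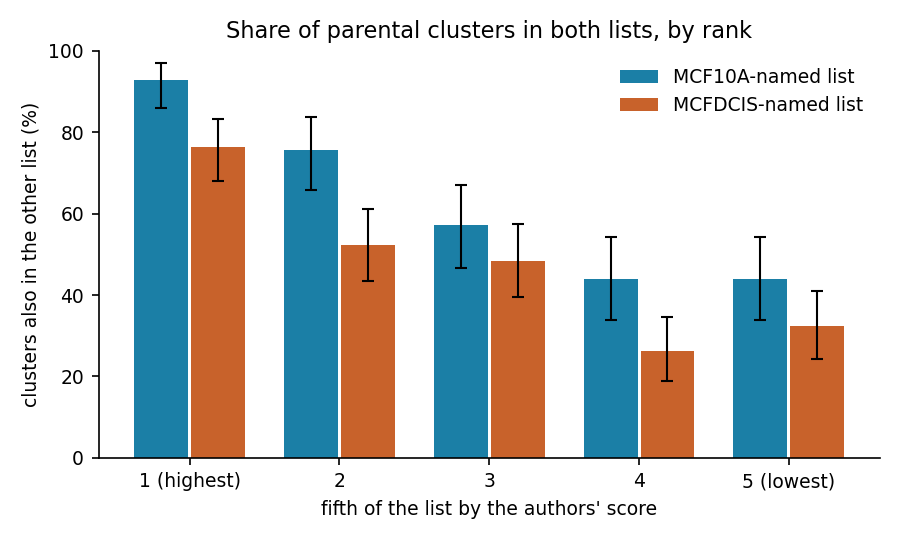
Share of clusters also found in the other parental list (percent, y axis) in 5 equal stretches of a list ordered by the authors' score (x axis, highest first); error bars are exact 95% intervals over clusters. The share fell from 92.9% to 43.9% in the MCF10A-named list and from 76.3% to 32.3% in the MCFDCIS-named list.

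Over the whole lists, 62.7% of the MCF10A-named clusters (58.2 to 67.0) and 47.2% of the MCFDCIS-named clusters (43.3 to 51.1) were shared. With the MCFDCIS-named list cut to its first 490 clusters, 257 were shared and both shares were 52.4%. The median rank of the shared clusters was 174.5 in the MCF10A-named list, that of the unshared 326.5. In the MCFDCIS-named list these medians were 239 and 408.75. Each of the 307 shared clusters had the same start and the same end in both lists. Whether the regions were defined jointly before the lists were made is not stated in the labels or files, so overlap cannot be read as independent calling of the same place. The shared clusters cover 177.97 kb, the MCF10A-named only clusters 170.48 kb and the MCFDCIS-named only clusters 235.09 kb.

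Although the shared clusters led both lists, their order within them was only weakly alike. Over the 307 shared clusters Spearman's rho between the scores was 0.314 and Pearson's r of the log2 scores was 0.372, given as a description over regions. The 76 highest ranked shared clusters of each list had 33 in common, and the 77 lowest ranked had 29 in common. A further 12 were among the highest of the MCF10A-named list and the lowest of the MCFDCIS-named list, and 9 were the reverse. Counted among the shared clusters alone, the median difference of rank was 63 places, and 100 clusters differed by over 100 places. Score and width were little related in the MCF10A-named list (rho 0.060) and more in the MCFDCIS-named list (rho 0.208).

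**Figure D3:**
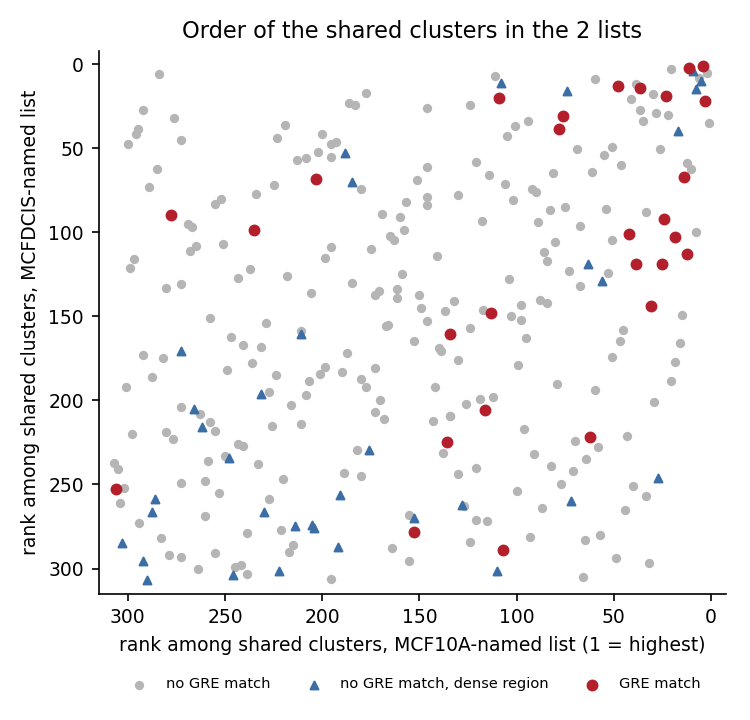
Rank of each of the 307 shared clusters among the shared clusters of the MCF10A-named list (x axis, 1 is the highest score) and of the MCFDCIS-named list (y axis); 1 point is 1 cluster, and colours mark GRE matches and dense regions. The points scatter widely (rho 0.314), and the clusters with a GRE match lie mostly toward the upper right, where both ranks are high.

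The 8 shared clusters with the highest mean rank over both lists were near genes of varied function. PER1, MCF2L2 and DUSP10 are described above. The cluster nearest to CDKN2AIPNL, 54.5 kb away, ranked 2 in the MCF10A-named list and 5 in the MCFDCIS-named list. The cluster 79.8 kb from IRX4, a homeobox gene, ranked 6 and 8. The other 3 were in regions dense with clusters and were broad: 1960 bp in intron 2 of RAI1 (ranks 9 and 4), 6410 bp at 63.6 kb from MYC (ranks 5 and 10), and 5260 bp in intron 7 of DNAJB12, an HSP40 co-chaperone gene (ranks 7.5 and 15; tied scores were given their mean rank).

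The shared clusters that moved most between the lists carried other names. Counted among the 307, the cluster nearest to ETAA1, a replication stress gene, was at 284 in the MCF10A-named list and 6 in the MCFDCIS-named list. The cluster nearest to CD28 was at 292 and 27.5, that in intron 2 of SSH1, a cofilin phosphatase gene, at 295 and 38.5, and that 113.5 kb from TGFBR2, which encodes the type II TGF-beta receptor, at 296 and 41.5. In the other direction, the cluster nearest to SNCAIP was at 32 in the MCF10A-named list and 297 in the MCFDCIS-named list. The cluster nearest to OTOS was at 49 and 294, that nearest to RYBP, a Polycomb protein gene, at 66 and 305, and that nearest to CSF3R, the G-CSF receptor gene, at 57 and 280. These clusters were chosen for their difference in rank, which is therefore a description. From the TSS, the ETAA1, CD28 and SNCAIP clusters lay 66.6 kb, 23.8 kb and 53.7 kb away. Those of OTOS, RYBP and CSF3R lay 110.8 kb, 181.6 kb and 4.19 kb away.

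The best placed unshared clusters began within the first 30 ranks of each list. In the MCF10A-named list the first unshared cluster, in KLF13, ranked 23, and the nearest cluster of the other list was 1484 kb away. It was followed by clusters near ABLIM3 (rank 28, 6.14 kb from a cluster of the other list), in ERGIC1 (36, 30.8 kb), in intron 3 of CBLB, a ubiquitin ligase gene that restrains receptor signalling (43, 973 kb), and in intron 4 of PRKAG2, an AMPK subunit gene (52.5, 12896 kb). The sixth lay in TFAP2A, which encodes the epithelial factor AP-2 alpha (82.5, 1951 kb). The KLF13, ERGIC1 and CBLB clusters had a GRE match.

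In the MCFDCIS-named list the first unshared cluster was at S100A2, which encodes a calcium-binding protein of basal epithelium, at rank 29 and 1.73 kb from the TSS. A pair of clusters 559.5 kb and 551.2 kb from KLF4 ranked 32 and 47, the PDSS2 cluster ranked 43, a cluster in intron 1 of SIPA1L2 ranked 58, and a cluster 84.6 kb from CDKN3, a cyclin-dependent kinase phosphatase gene, ranked 68. The KLF4 cluster at 551.2 kb and the PDSS2 cluster had a GRE match.

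Many unshared clusters lay near a cluster of the other list without touching it. The median gap to the other list was 19.24 kb for the 183 MCF10A-named only clusters, of which 149 were within 100 kb. For the 344 MCFDCIS-named only clusters it was 127.19 kb, and 159 were within 100 kb. Within 5 kb these counts were 42 and 40.

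Of these clusters within 100 kb of the other list, 95 of the 149 and 88 of the 159 lay in 3 dense regions, defined as runs of 1 Mb bins that each hold 20 or more clusters, both lists counted. On chromosome 8 from 127 to 129 Mb, which includes MYC, 99 clusters were found, of which 11 were shared, 46 were MCF10A-named only and 42 were MCFDCIS-named only. On chromosome 10 from 73 to 75 Mb, which includes DDIT4, a glucocorticoid- and stress-induced mTORC1 inhibitor gene, the counts were 14, 31 and 27 of 72. On chromosome 17 from 17 to 19 Mb, which includes RAI1 and SREBF1, the sterol-responsive lipid synthesis regulator, they were 11, 21 and 20 of 52. These regions held 11.7% of the shared clusters, 53.6% of the MCF10A-named only clusters and 25.9% of the MCFDCIS-named only clusters. Shared minus MCF10A-named only was -41.8 points (-49.6 to -33.5), and shared minus MCFDCIS-named only was -14.1 points (-19.9 to -8.19).

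Inside the dense regions the lists covered the same neighbourhoods with different intervals. There 36 of 134 MCF10A-named clusters (26.9%) and 36 of 125 MCFDCIS-named clusters (28.8%) were shared. The lists covered 202.39 kb and 263.8 kb, of which 100.16 kb was covered by both, and the unshared clusters were a median of 11.3 kb and 11.8 kb from the other list. Clusters were broad here, with a median width of 585 bp and 1260 bp, against 60 bp in each list elsewhere. Outside the dense regions 271 of 356 MCF10A-named clusters (76.1%, 71.3 to 80.5) and 271 of 526 MCFDCIS-named clusters (51.5%, 47.2 to 55.9) were shared. The files hold no measure of copy number or input signal, and the part of either in these regions was not tested.

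**Figure D4:**
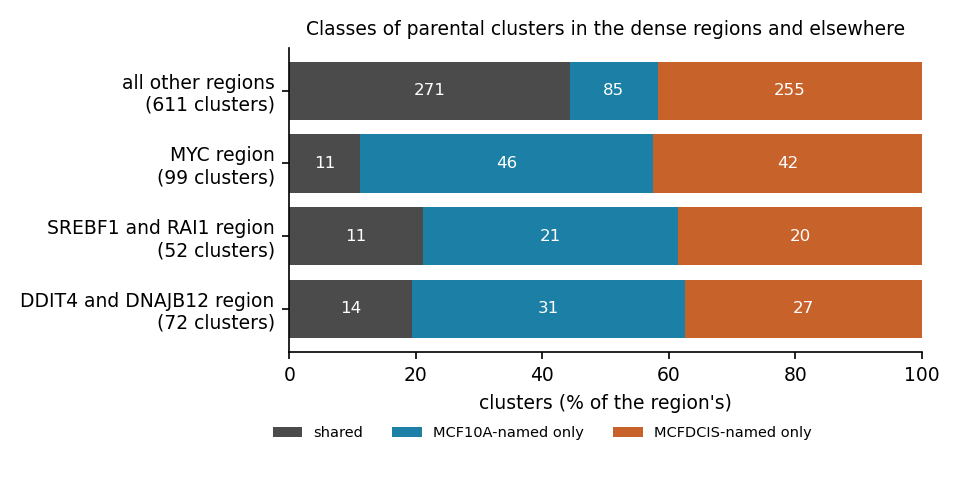
Shared, MCF10A-named only and MCFDCIS-named only clusters in each of the 3 dense regions and outside them, as a percentage of the region's clusters (x axis), with the number of clusters in each segment. Unshared clusters of both names outnumber the shared ones in each dense region (46 and 42 against 11 in the largest), whereas outside them 271 of 611 clusters were shared.

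Single genes of the dense regions had clusters of each class within 100 kb of the TSS; these genes, and those of the next paragraph, were picked after their counts were seen. SREBF1 had 3 shared, 8 MCF10A-named only and 6 MCFDCIS-named only clusters. DDIT4 had 7, 3 and 6, and it was the gene here with the most shared clusters. P4HA1, a collagen prolyl hydroxylase gene, had 1, 7 and 8. MYC had 2, 5 and 5, and a cluster on its TSS was MCFDCIS-named only, at rank 452.

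Outside the dense regions, clusters of several classes met at a few genes. FOSB, an AP-1 subunit gene, had 1 shared and 3 MCFDCIS-named only clusters and no MCF10A-named only cluster. ERGIC1 had 1 shared and 3 MCF10A-named only clusters and none of the MCFDCIS-named only class. PIGR, the polymeric immunoglobulin receptor gene of secretory epithelium, had 2, 0 and 3, and S100A10 had 1, 2 and 2.

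The classes were spread unevenly over the chromosomes outside the dense regions. Chromosome 19 held 19 shared, 5 MCF10A-named only and 35 MCFDCIS-named only clusters, and chromosome 5 held 28, 19 and 57. By contrast chromosome 6 held 15, 3 and 3, chromosome 12 held 11, 1 and 2, and chromosome 16 held 8, 1 and 1. No parental cluster was found on chromosomes 20, 21 and 22, and their genes were left out of the counts of genes.

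Shared clusters lay less often at promoters than MCFDCIS-named only clusters. Within 1 kb of a protein-coding transcript start were 30 shared (9.77%), 23 MCF10A-named only (12.6%) and 52 MCFDCIS-named only clusters (15.1%). Shared minus MCFDCIS-named only was -5.34 points (-10.4 to -0.22), and shared minus MCF10A-named only was -2.80 points (-9.06 to 2.78), an interval that includes 0. The first difference was found in the lower ranks. Below the median of the MCFDCIS-named list 12.1% of shared and 20.1% of unshared clusters were at promoters, whereas above it the order turned, with 8.5% of shared and 6.4% of unshared clusters.

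Named promoters differed by class. Among the shared clusters were those at KRT17, SCNN1A, HRAS and AXL, all described with their gene groups. Of the MCFDCIS-named only class were NR3C1, the gene of the glucocorticoid receptor itself (1.1 kb from the canonical TSS, rank 463), FOSB (0.397 kb, rank 525) and SREBF1 (on the TSS, rank 280). The exon, intron and intergenic shares were 0.98%, 35.8% and 53.4% for shared clusters, 1.09%, 32.2% and 54.1% for MCF10A-named only clusters and 2.33%, 37.2% and 45.3% for MCFDCIS-named only clusters.

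Shared clusters had a higher median GC content, while the order of widths depended on which clusters were counted. Their median width was 110 bp, against 60 bp in both unshared classes, but the upper quartile was 210 bp in the shared class, 1060 bp in the MCF10A-named only class and 360 bp in the MCFDCIS-named only class. Clusters of 10 bp made up 20.5%, 36.1% and 36.3%. Without them the order of the median widths turned, to 110 bp, 460 bp and 210 bp, and without dense regions the median was 60 bp in each class. Median GC content, over the same central windows, was 49.6%, 45.0% and 44.8%, and that of the flanks 46.0%, 43.8% and 43.3%. The median distance to the nearest canonical TSS was 37.6 kb, 52.6 kb and 36.5 kb.

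Most genes near the shorter list were also near the longer one. Of 18869 protein-coding genes, 638 (3.38%) had a shared cluster within 100 kb of the TSS, 186 (0.986%) had an MCF10A-named only cluster, 656 (3.48%) had an MCFDCIS-named only cluster, and 1240 (6.57%) had any. Of 759 genes near the MCF10A-named list, 687 (90.5%) were also near the MCFDCIS-named list, and these were 58.8% of the 1168 genes near that list. A shared cluster was also present at 65 of the 186 genes with an MCF10A-named only cluster (34.9%) and at 126 of the 656 with an MCFDCIS-named only cluster (19.2%). Only 72 genes had an MCF10A-named only cluster and no other, whereas 481 had an MCFDCIS-named only cluster and no other.

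The genes induced by glucocorticoids that lay near a cluster were mostly near a shared 1. Of 25 such genes, 9 had a shared cluster within 100 kb, 1 had an MCF10A-named only and 2 had an MCFDCIS-named only cluster, beside 3.38%, 0.986% and 3.48% of all genes. Lists are described by these counts, and no list was tested against other genes. Of the 9 genes, MT1X is counted only through the MT2A cluster, which thus counts for both genes. The clusters at SCNN1A (rank 18.5 in the MCF10A-named list, 138 in the other), MT2A (1.14 kb, ranks 26 and 162), PER1 (1.93 kb, ranks 4 and 1) and KLF9 (5.43 kb, ranks 127 and 217.5) each held a GRE match. The nearest shared clusters of 3 of the 9 genes held none, those of ANGPTL4, a lipase inhibitor gene (8.28 kb, ranks 151 and 346.5), ERRFI1, an EGFR inhibitor gene (44.8 kb, ranks 219 and 295), and ZBTB16, a zinc finger repressor gene (94.9 kb, ranks 107 and 359). Introns of ZBTB16 held further shared clusters just beyond the window, such as those at 100.5 kb (ranks 87 and 72) and 103.2 kb (ranks 123 and 20). FKBP5 had 2 shared clusters within 100 kb. The nearer, shown above, was 39.2 kb from its canonical TSS (ranks 84 and 40.5) and held a GRE match. An MCFDCIS-named only cluster 86.9 kb from that TSS (rank 103) held a GRE match as well. DUSP1, a MAPK phosphatase gene, had an MCF10A-named only cluster at 4.45 kb (rank 395), and CAVIN2, a caveolar protein gene, an MCFDCIS-named only cluster at 48.0 kb (rank 111).

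Basal and myoepithelial genes were the other list with 9 members near shared clusters, of 29 measured, beside 3.38% of all genes. No member was near an MCF10A-named only cluster and 2 were near an MCFDCIS-named only cluster. These 9 rest on fewer clusters, since 1 cluster at 0.124 kb from KRT17 (ranks 195.5 and 135) also counts for the keratin genes KRT16 and KRT14, and 1 at 1.41 kb from KRT6A (ranks 153 and 378.5) also counts for KRT5 and KRT6B. The nearest MCFDCIS-named only clusters ranked 29 at S100A2 and 158 at 20.8 kb from ITGB4, the hemidesmosome integrin gene, and each of these genes had a second such cluster, at ranks 394.5 and 396.5. Of 21 luminal genes, 4 were near a shared cluster (3.38% of all genes were). They were KRT7 (47.2 kb, ranks 38 and 35.5), AREG, KRT19 and ESR1, the estrogen receptor gene (93.6 kb, ranks 415.5 and 178). KRT19 is counted through the KRT17 cluster of the basal list, 96.4 kb away, and AREG through the EREG cluster, 70.3 kb away. None of the 4 was within 25 kb.

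Among 30 genes of EGFR ligands, receptors and MAPK feedback, 8 were near a shared cluster, 1 was near an MCF10A-named only and 2 were near an MCFDCIS-named only cluster. Over all genes these shares were 3.38%, 0.986% and 3.48%. HRAS, a RAS GTPase gene, had a shared cluster at 0.816 kb (ranks 208.5 and 283), and SPRED2, a RAS-MAPK inhibitor gene, at 4.02 kb (ranks 250.5 and 282). The EREG cluster (9.49 kb, ranks 115 and 98) also counts for the neighbouring ligand genes EPGN and AREG. PHLDA1 had a shared cluster at 53.6 kb (ranks 266.5 and 61) and an MCFDCIS-named only cluster at 11.3 kb (rank 78). TGFA, the gene of the EGFR ligand TGF-alpha, had only an MCFDCIS-named cluster, at 29.3 kb (rank 429).

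Of 15 FOS and JUN family genes, 3 had a shared cluster, beside 3.38% of all genes. That at FOSB was 11.6 kb from the TSS (ranks 72.5 and 184.5), that at FOSL1 15.5 kb (ranks 450.5 and 85) and that at FOS 24.2 kb (ranks 146.5 and 91). The cluster near FOSL1 thus stood near the end of the MCF10A-named list and among the first 100 of the MCFDCIS-named list.

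The TGF-beta genes near a cluster were near MCFDCIS-named only clusters. Of 25 ligand, receptor and target genes, 4 had such a cluster (against 3.48% of all genes) and none had a shared or MCF10A-named only cluster within 100 kb. They were TGFBI, a matrix protein gene (5.02 kb, rank 569), TGFBR2 (9.08 kb, rank 146.5), TGFB1, the ligand gene (9.77 kb, rank 335.5), and LTBP2, a latent TGF-beta binding protein gene (40.1 kb, rank 132). The TGFB1 cluster lay at the promoter of B9D2, 0.444 kb from that gene's TSS. A shared cluster 113.5 kb from TGFBR2 lies just beyond the window. Of 24 genes of epithelial-mesenchymal transition, 3 had an MCFDCIS-named only cluster, of which TGFBI is in both lists and S100A4 shares the cluster of S100A2.

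**Figure D5:**
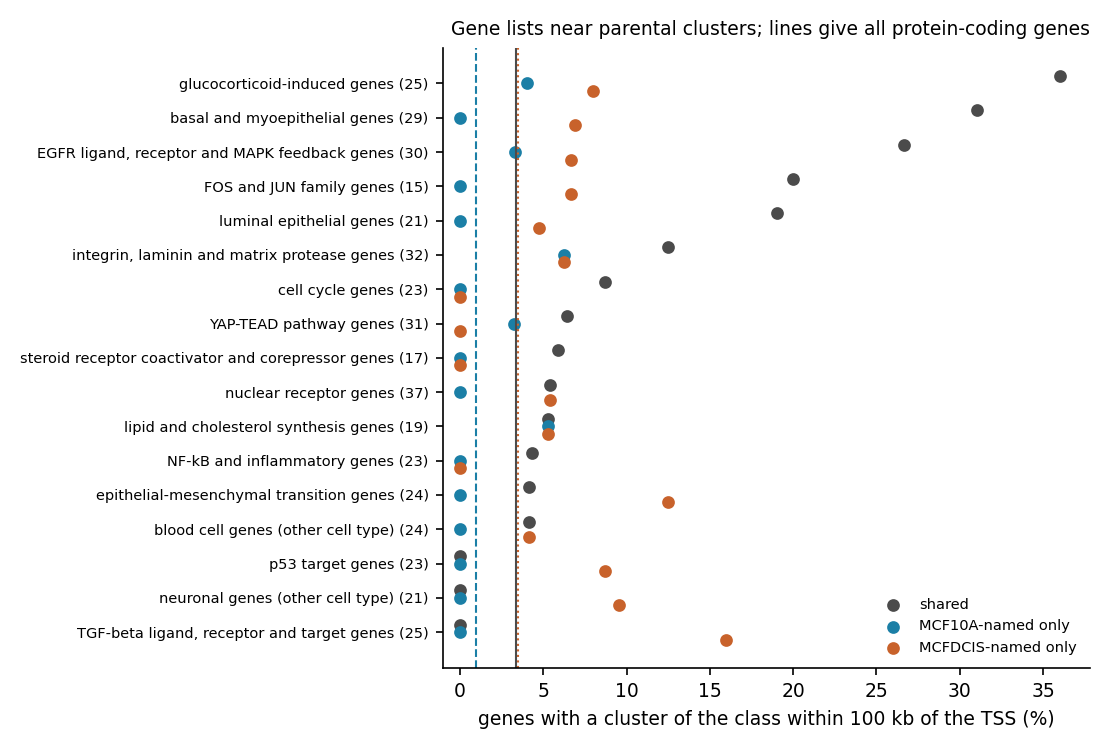
Share of the measured members of each gene list (percent) with a shared, an MCF10A-named only or an MCFDCIS-named only cluster within 100 kb of the TSS; the number of members is in brackets, and the vertical lines give the same share over all 18869 protein-coding genes. The glucocorticoid-induced list (9 of 25) and the basal list (9 of 29) have the highest shares for shared clusters, and the TGF-beta list has 4 of 25 for MCFDCIS-named only clusters and 0 for the others.

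Of 32 integrin, laminin and matrix protease genes, 7 were near any cluster (6.57% of all genes were) and 4 of these were near a shared cluster, including ITGB6 (28.5 kb, ranks 140 and 24.5) and MMP14, a membrane-bound collagenase gene (28.8 kb, ranks 102 and 567). In the same list ITGB3 (23.6 kb, rank 146.5) was near an MCF10A-named only cluster, and PLAUR, the urokinase receptor gene, was near 1 of each unshared class (83.1 kb and 98.1 kb). Of 31 YAP-TEAD genes, 3 were near any cluster (9.68%, beside 6.57% of all genes). AXL, a receptor kinase gene (6.97 kb, ranks 89 and 113), and AMOTL2, a Hippo pathway scaffold gene (22 kb, ranks 72.5 and 126), had a shared cluster, and CCN1 had an MCF10A-named only cluster (48.1 kb, rank 471).

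The remaining lists had 4 or fewer members near any class. Their shares ran from 4.17% of blood cell genes to 10.8% of nuclear receptor genes, beside 6.57% of all genes. Of 37 nuclear receptor genes, 2 had a shared cluster, RXRA (45.5 kb, ranks 48 and 521) and ESR1, and 2 had an MCFDCIS-named only cluster, among them NR3C1. Of 17 coactivator and corepressor genes, PPARGC1B had a shared cluster (17.3 kb, ranks 69 and 399). Of 23 NF-kB and inflammatory genes, the chemokine gene CCL20 had a shared cluster (4.44 kb, ranks 64.5 and 9). Shared, MCF10A-named only and MCFDCIS-named only counts were 1, 1 and 1 of 19 lipid synthesis genes, all at SREBF1, 0, 0 and 2 of 23 p53 targets, and 2, 0 and 0 of 23 cell cycle genes. For genes of other cell types they were 1, 0 and 1 of 24 blood cell genes and 0, 0 and 2 of 21 neuronal genes. Of the cell cycle genes, AURKB is counted through the PER1 cluster, 56.0 kb away, and TOP2A through a cluster 92.5 kb away.

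The classes met the D4 lists to different extents. The MCF10A-named D4 list of 138 clusters overlapped 6.51% of shared, 25.7% of MCF10A-named only and 10.2% of MCFDCIS-named only clusters, and the MCFDCIS-named D4 list of 99 clusters overlapped 10.7%, 3.28% and 9.30%.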

How the data were processed

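The authors deposited 1 BED list per group, 4 in all. Column 5 is the authors' score as deposited, made from ChIP and input samples by a step no source used here defines; it was used only to order clusters within a list. Normalization was to input from cell lysate, per the labels' design text, and the build was hg19 (GRCh37), per the submitters' processing notes. Aligner, caller, threshold and the way a group's samples were combined: not given in the sources used here.

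Clusters were compared with GRCh37 and GENCODE release 44 lifted to that build. The distance to a gene runs from the cluster's edge to the canonical TSS of a protein-coding gene; a promoter is within 1 kb of any protein-coding transcript start. For 12 motifs both strands of the central 500 bp were searched. The p53/p63, NF-kB, CTCF, estrogen and glucocorticoid response elements are given by name only. Tied scores were given their mean rank. No test over samples or regions was made.

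Clusters were named by a rule: the 8 shared ones with the highest mean rank percentile, the 5 with the largest rank difference each way, the 6 highest ranked of each unshared class, and for each gene list up to 4 members with a shared and up to 3 with an unshared cluster. Further members named were chosen after their values were seen, and a few genes that the rule names are not reported here. The classes, the 17 gene lists and the motifs were chosen with earlier results of these data known. The scripts were tested on simulated data. Tools were pysam 0.24.0, SciPy 1.17.1, pandas 2.3.3, numpy 2.4.6 and matplotlib 3.10.9 under Python 3.11.15.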

Additional observations from a re-analysis of the deposited data

How the results depend on the processing

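Of 99 alternative values of the main results, 69 moved by less than their 95% interval and 30 moved further. Of the 69, 4 are for a reciprocal overlap of 50%, which could change nothing since shared clusters have identical ends. A difference between classes did turn: promoter shares of shared minus MCFDCIS-named only clusters went from -5.34 to 2.80 points (-3.08 to 9.35) when each list was held to scores above its median. The share of the MCF10A-named and the MCFDCIS-named list that was shared was 58.1% and 43.1% under that restriction, 52.4% and 52.4% at equal list lengths, 76.1% and 51.5% without dense regions, and 67.6% and 52.7% without clusters of 10 bp. With clusters within 5 kb merged it was 67.2% in the MCF10A-named list.

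Under that restriction a shared cluster whose partner is not above its own median counts as unmatched, so the unmatched clusters, 101 of the MCF10A-named list and 185 of the other, include 53 and 60 that are shared in the full lists. GRE matches stood at 13.6% of matched clusters and at 8.91% and 4.32% of the unmatched, AP-1 matches at 33.7% and 43.2% of the unmatched, and promoter clusters at 6.49% of those of the MCFDCIS-named list. AP-1 matches were present in 28.0%, 10.9% and 20.3% of the central 200 bp, in 30.6% of whole shared and 27% of whole MCFDCIS-named only clusters, and, with the motif held to TGACTCA or TGAGTCA, in 34.2%, 16.4% and 23.5%. Promoter shares were 5.21%, 6.01% and 10.5% within 250 bp, 14% and 18.6% for shared and MCF10A-named only clusters within 2.5 kb, and 4.56% and 11.0% for shared and MCFDCIS-named only clusters with canonical starts only. The canonical starts, the narrower AP-1 motif and the use of any start for gene lists were chosen after seeing the data. The cause of these shifts was not tested beyond what each setting removes by its construction.

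Without dense regions the promoter difference of shared minus MCF10A-named only clusters was -8.42 points (-18.3 to -0.64), an interval that excludes 0. For shared minus MCFDCIS-named only clusters it was -7.25 points (-13.1 to -1.53) there. The promoter difference between shared and MCFDCIS-named only clusters was -4.49 points when a gap of 1 kb counted as shared and -4.89 points within 2.5 kb, both with intervals that include 0. Within 25 kb of the TSS, shared clusters were near 5 glucocorticoid-induced, 3 basal, 3 EGFR and MAPK, 0 luminal and 0 integrin and protease genes. No paired analysis was possible because each group has 1 list and no replicate values, and for the same reason no replicate could be left out. Depth is unknown, so a cluster missing from a list may be below its threshold there.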
